A study of Mus musculus with 6 samples.

Results

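Genes of the NRF2 antioxidant response, 10 in number, were followed in brain endothelial cells with reduced Npc1. They are the factor gene Nfe2l2, its inhibitor gene Keap1, and the target genes Nqo1, Hmox1, Gclc, Gclm, Txnrd1, Srxn1, Slc7a11 and G6pdx. They were chosen by symbol, as were the gene lists below, with earlier results of these data known. All 10 members were found among the 15917 genes of the deposited table. All 10 passed the filter on low values, set at a mean of 1 FPKM (sequenced fragments scaled by transcript length and by library size) over the 6 libraries, and none through only 1 group, since the lowest control mean was 19.4 FPKM. The cells were bEnd.3, a mouse brain endothelial line transformed with polyoma middle T antigen. Polyadenylated RNA was sequenced from 3 samples that carried a control short hairpin RNA, numbered 1 to 3, and from 3 in which a hairpin targeted Npc1, numbered 4 to 6. The labels tag the control samples WT, while their titles name a control hairpin, and groups were set by title. How the hairpins were delivered is not stated, nor whether the samples of a group were grown separately, or whether the knockdown samples had 1 hairpin sequence in common. P-values therefore speak only to sample-to-sample spread, and that spread may be technical.

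NRF2, the protein of Nfe2l2, is a transcription factor that pairs with small MAF proteins at antioxidant response elements. KEAP1 holds NRF2 in the cytoplasm and presents it to the CUL3 ubiquitin ligase for degradation, and oxidants or electrophiles that modify KEAP1 cysteines let NRF2 build up. NRF2 is thus controlled mainly as a protein, and the mRNA of its targets is a common readout of its activity. In endothelium the pathway is known for protection against oxidised lipids and disturbed flow.

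The libraries were checked on Npc1 (gene 18145), the late endosomal cholesterol exporter that the hairpin targets. Control libraries had 6.31, 6.63 and 7.27 FPKM, whereas replicates 4, 5 and 6 had 0.45, 1.2 and 0.97. The knockdown mean was 13.0% of the control mean, with an exact two-sided permutation p of 0.1, the smallest that 3 against 3 samples allow. Depth is unknown, as no counts were used, and FPKM summed to between 661950 and 757030 per library. Over the 10400 genes tested with limma at an adjusted p under 0.05, 1251 rose (12%) and 613 fell (5.89%), so that 67.1% of calls were higher. That share was 52.8% when libraries were centred on their medians, 55.5% when they were scaled by the trimmed mean of M values, and 52.6% after a GC correction. Knockdown replicate 4 stood apart from replicates 5 and 6 along GC content, as described with the genes it touches. Control replicates 1 and 2 also deviated along GC content from the other controls. Pearson r across genes was -0.41 and 0.41, and 0.029 in control replicate 3. The SD of the deviation was 0.14 and 0.13 in control replicates 1 and 2, against 0.34 in knockdown replicate 4. Knockdown replicates 5 and 6 deviated the other way from the rest of their group, with r of -0.65 and -0.47 (SD 0.26 and 0.15). Each library was set against the mean of the others in its group, replicate 4 included, so these values depend on one another.

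Promoter sequence was examined because the antioxidant response element is the site through which NRF2 is known to act. RefSeq windows of 250 bases before to 50 after a start (GRCm38.p6) were held for 8 of the 10 genes, in 10 windows. No window was held for Hmox1 or Gclc. The core element, TGACNNNGC on either strand, was found in 5 of the 10 windows, belonging to Nfe2l2, Gclm, Srxn1, Txnrd1 and G6pdx. It is a short motif, present in 12.4% of all 32851 windows and in 13.7% of those of the genes in the table. The AP-1 motif TGAGTCA, whose reverse complement can share bases with the core element, was found at 2 positions of the Srxn1 window (5.20% of all windows hold at least 1). TGATGNAA, a core of the element bound by ATF4 with C/EBP partners, was found at 2 positions in opposite orientations in the Slc7a11 window (3.97% hold at least 1 and 0.070% at least 2). The 250 upstream bases are shown for 3 genes that rose and 2 that did not pass, 5′ to 3′ along the gene, with matches to the 3 motifs in capitals.
Nfe2l2 (chr2:75704664-75704913, minus strand): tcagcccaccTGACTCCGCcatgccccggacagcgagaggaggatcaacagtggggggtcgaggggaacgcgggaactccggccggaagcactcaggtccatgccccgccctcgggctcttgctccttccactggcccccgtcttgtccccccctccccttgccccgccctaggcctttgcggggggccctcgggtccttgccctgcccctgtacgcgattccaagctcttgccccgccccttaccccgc
Gclm (chr3:122245307-122245556, plus strand): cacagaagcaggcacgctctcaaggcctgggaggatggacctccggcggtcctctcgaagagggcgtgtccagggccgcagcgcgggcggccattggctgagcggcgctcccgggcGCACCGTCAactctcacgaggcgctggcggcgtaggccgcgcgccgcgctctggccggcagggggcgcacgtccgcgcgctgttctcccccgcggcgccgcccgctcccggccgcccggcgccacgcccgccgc
Srxn1 (chr2:152105274-152105523, plus strand): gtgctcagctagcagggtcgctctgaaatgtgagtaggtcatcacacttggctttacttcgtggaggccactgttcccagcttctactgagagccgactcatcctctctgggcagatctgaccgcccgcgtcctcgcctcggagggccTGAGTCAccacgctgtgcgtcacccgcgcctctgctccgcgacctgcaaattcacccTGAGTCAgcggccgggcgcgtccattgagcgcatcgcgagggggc
Slc7a11 (chr3:50443614-50443863, minus strand): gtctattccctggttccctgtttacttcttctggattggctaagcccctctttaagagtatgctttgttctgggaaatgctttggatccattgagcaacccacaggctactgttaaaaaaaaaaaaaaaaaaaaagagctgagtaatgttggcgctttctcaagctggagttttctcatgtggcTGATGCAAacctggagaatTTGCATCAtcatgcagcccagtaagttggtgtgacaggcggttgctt
G6pdx (chrX:74428881-74429130, minus strand): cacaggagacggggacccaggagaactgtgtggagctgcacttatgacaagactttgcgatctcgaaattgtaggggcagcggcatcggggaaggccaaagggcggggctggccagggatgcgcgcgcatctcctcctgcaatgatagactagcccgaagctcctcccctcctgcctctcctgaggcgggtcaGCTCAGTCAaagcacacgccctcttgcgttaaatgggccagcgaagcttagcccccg
In Nfe2l2 the capitals mark the core element on the gene's strand, and in Gclm and G6pdx on the opposite strand. In Srxn1 they mark both AP-1 matches, and its core element match lay downstream of the start, outside the bases shown. The AP-1 match nearer the start is followed by the bases gc, and variants of the core element other than TGACNNNGC were not searched. In Slc7a11 they mark the pair of ATF4 element matches. A match is only a string of letters, and genes with a core element were found both among those that rose and among those that did not pass. The windows of Nqo1, which rose, and Keap1, which did not pass, held no match to the 3 motifs. Elements outside the windows were not searched.

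Of the 10 genes 7 rose in the knockdown (12% of all tested genes did) and 0 fell (5.89% of all tested genes did). Nqo1 and Hmox1 rose about 3-fold, Gclm, Srxn1, Txnrd1, Gclc and Nfe2l2 rose by 1.29-fold to 1.85-fold, and Keap1, Slc7a11 and G6pdx did not pass. In those 7 all 3 knockdown values lay above all 3 control values, which was so for 27.4% of tested genes, and in 0 genes did they lie below (16.1%). The median log2 difference was 0.53 over the 10 genes and 0.026 over all tested genes, and 0.51 and 0.00055 after the GC correction. The FPKM of the 10 genes summed to between 795 and 834 in the control libraries and between 1546 and 1778 in the knockdown libraries. In the authors' deposited table the same 7 genes had a q under 0.05 with a ratio above 1, as did 6.48% of its genes, and 0 had a ratio below 1, as did 5.6%. Without control replicate 1 or 2 or knockdown replicate 6 the genes that rose were 5, and without control replicate 3 they were 6. Of all tested genes 3.19%, 4.12%, 4.56% and 2.97% rose in those fits, in that order.

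**Figure D1:**
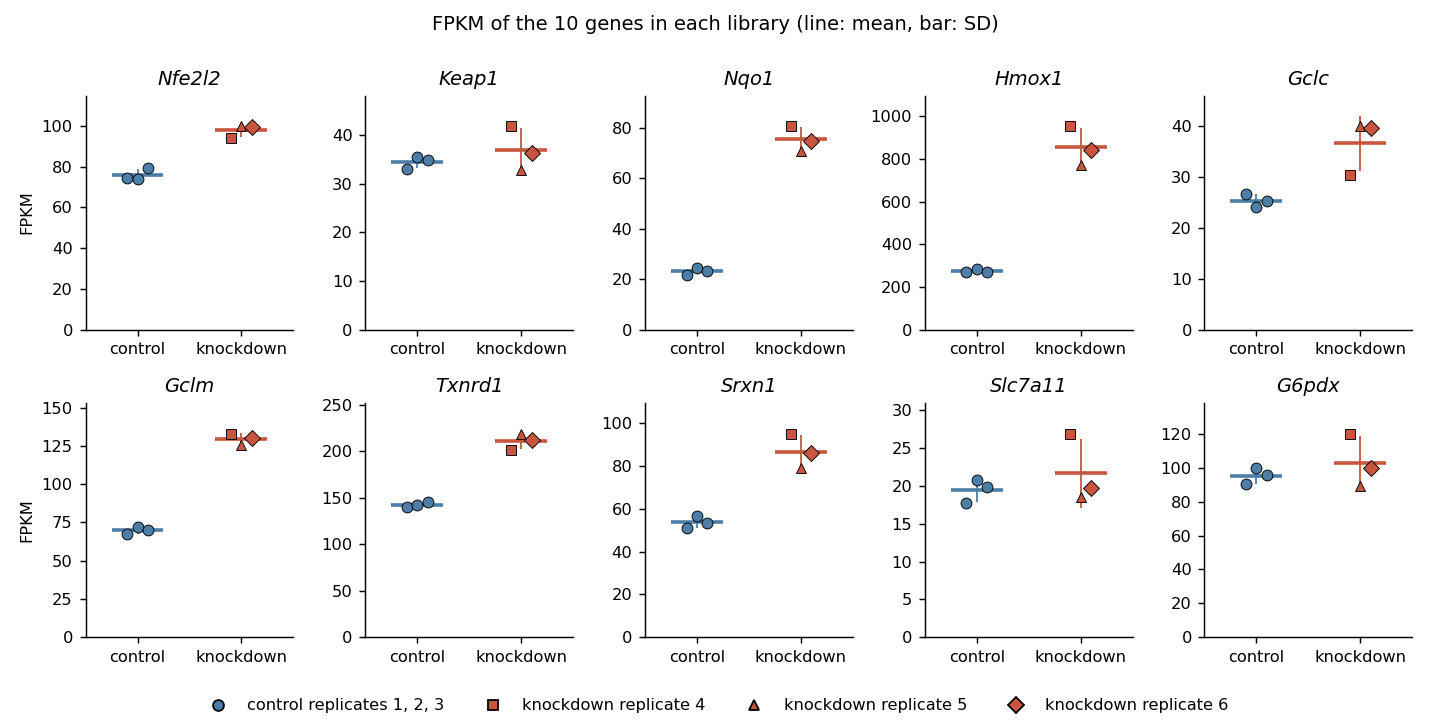
FPKM (vertical axes, from 0) of each gene in the 3 control and 3 knockdown libraries, with the group mean as a line and the SD as a bar. The groups are apart in 7 panels and overlap for Keap1, Slc7a11 and G6pdx, where knockdown replicate 4 is the highest library.

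Nfe2l2 (gene 18024), the gene of NRF2 itself, had 74.60, 73.94 and 79.22 FPKM in the controls and 94.23, 99.97 and 99.52 in knockdown replicates 4, 5 and 6. The groups were apart, and the ratio of means was 1.29 (log2 difference 0.36, SE 0.059, limma adjusted p = 0.00940). Leaving out control replicate 1, control replicate 2 or knockdown replicate 6 ended the call (adjusted p = 0.0599, 0.0562 and 0.0517), while the log2 difference stayed between 0.31 and 0.40 over all alternatives. Keap1 (gene 50868), the inhibitor, had 33.12, 35.56 and 35.00 FPKM in the controls and 41.89, 32.79 and 36.33 in knockdown replicates 4, 5 and 6. The groups overlapped, with 1 knockdown value below all controls and 2 above. The log2 difference was 0.090 with a 95% interval of -0.13 to 0.31 (limma adjusted p = 0.521), so changes inside that interval could not be told from 0. Without knockdown replicate 4 the log2 difference was -0.0012, and without replicate 5 it was 0.17. The ratio of Nfe2l2 to Keap1 FPKM was 2.25, 2.08 and 2.26 in the controls and 2.25, 3.05 and 2.74 in knockdown replicates 4, 5 and 6. That is a log2 difference of 0.28 in the ratio (exact permutation p = 0.3), and 0.18 without knockdown replicate 5. After the GC correction it was 0.47 (exact permutation p = 0.1, the smallest possible). Before that correction replicate 4 lay among the controls, and the groups overlapped.

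Nqo1 (gene 18104) encodes NAD(P)H quinone dehydrogenase 1, which reduces quinones by a pair of electrons and is a standard NRF2 target. Its FPKM was 21.80, 24.47 and 23.36 in the controls and 80.64, 70.74 and 74.83 in knockdown replicates 4, 5 and 6. Every knockdown library held more than any control by a wide margin, and the mean was 23.2 ± 1.34 FPKM in the controls and 75.4 ± 4.97 in the knockdown (SD, n = 3 each). The ratio was 3.25 (log2 difference 1.66, SE 0.075, limma adjusted p = 0.000168). Hmox1 (gene 15368) encodes heme oxygenase 1, which opens heme to biliverdin, iron and carbon monoxide, and is held down by BACH1 at the same elements. The controls had 272.53, 284.51 and 272.05 FPKM and the knockdown replicates 4, 5 and 6 had 953.92, 772.06 and 840.24. The groups were far apart, with a ratio of 3.10 (log2 difference 1.62, SE 0.088, limma adjusted p = 0.000224). By log2 difference Nqo1 and Hmox1 ranked 10 and 11 from the top of the 10400 tested genes. By level, Hmox1 moved from rank 358 to rank 132 of the 15917 genes and Nqo1 from rank 3937 to rank 1439. Both calls were kept under all 18 alternatives.

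Gclm and Gclc encode the modifier and catalytic subunits of glutamate-cysteine ligase, the rate-limiting enzyme of glutathione synthesis. Gclm (gene 14630) had 67.16, 72.26 and 70.35 FPKM in the controls and 133.02, 125.31 and 130.49 in knockdown replicates 4, 5 and 6. The 3 values of the knockdown lay close together, and the ratio of means was 1.85 (log2 difference 0.88, SE 0.059, limma adjusted p = 0.000418). Gclc (gene 14629) had 26.77, 24.04 and 25.30 FPKM in the controls and 30.41, 40.02 and 39.60 in knockdown replicates 4, 5 and 6. Replicate 4 was the low one, though still above all controls, and the ratio was 1.45 (log2 difference 0.51, SE 0.11, limma adjusted p = 0.0267). Leaving out control replicate 1, 2 or 3 ended that call (adjusted p = 0.0831, 0.102 and 0.104), as did leaving out knockdown replicate 6 (0.0992) or scaling to TPM (0.0865). Without knockdown replicate 4 the log2 difference was 0.63 (adjusted p = 0.000323). The ratio of Gclm to Gclc FPKM was 2.51, 3.01 and 2.78 in the controls and 4.37, 3.13 and 3.30 in knockdown replicates 4, 5 and 6. The groups did not overlap, with a log2 difference in the ratio of 0.37 (exact permutation p = 0.1, the smallest possible), 0.22 without replicate 4 and 0.57 after the GC correction.

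Slc7a11 (gene 26570) encodes xCT, the light chain of the antiporter that brings in cystine for glutathione, and is a known target of both NRF2 and ATF4. It had 17.67, 20.75 and 19.86 FPKM in the controls and 26.88, 18.46 and 19.69 in knockdown replicates 4, 5 and 6. Only replicate 4 lay above the controls, and replicates 5 and 6 lay within their range. The log2 difference was 0.14 with a 95% interval of -0.20 to 0.47 (limma adjusted p = 0.519). It was -0.023 without replicate 4 and 0.24 without replicate 5. With all 6 libraries and the GC correction it was 0.38 (adjusted p = 0.306). Slc3a2 (gene 17254), which encodes the heavy chain that xCT shares with other transporters, rose from 111.16, 120.24 and 114.49 FPKM to 188.98, 159.84 and 174.29 (log2 difference 0.59, SE 0.077, limma adjusted p = 0.00462). The ratio of Slc7a11 to Slc3a2 was 0.159, 0.173 and 0.173 in the controls and 0.142, 0.115 and 0.113 in the knockdown libraries. The groups did not overlap, with a log2 difference of -0.45 (exact permutation p = 0.1, the smallest possible). It was -0.096 after the GC correction (exact permutation p = 0.8).

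**Figure D2:**
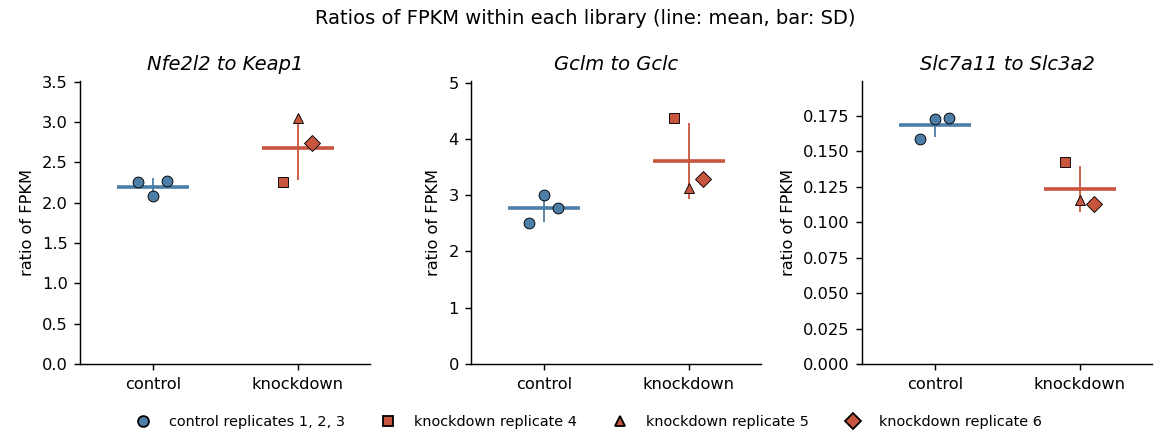
Ratio of FPKM within each library for Nfe2l2 to Keap1, Gclm to Gclc and Slc7a11 to Slc3a2 (vertical axes, from 0), with group means as lines and SDs as bars. The groups overlap for Nfe2l2 to Keap1, where knockdown replicate 4 (2.25) is among the controls, and are apart for the other ratios.

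Txnrd1 and Srxn1 serve the thioredoxin arm. Txnrd1 (gene 50493) encodes cytosolic thioredoxin reductase, a selenoprotein that regenerates thioredoxin with NADPH. Its FPKM was 139.91, 142.10 and 145.54 in the controls and 201.51, 218.83 and 211.61 in knockdown replicates 4, 5 and 6. Both groups were tight and apart, with a ratio of 1.48 (log2 difference 0.56, SE 0.059, limma adjusted p = 0.00225). Srxn1 (gene 76650) encodes sulfiredoxin, which restores overoxidised peroxiredoxins. It had 51.17, 56.45 and 53.14 FPKM in the controls and 95.01, 78.99 and 85.77 in knockdown replicates 4, 5 and 6. The groups were apart, with replicate 4 the highest, and the ratio was 1.62 (log2 difference 0.68, SE 0.083, limma adjusted p = 0.00366). Both calls were kept under all 18 alternatives.

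G6pdx (gene 14381) encodes glucose-6-phosphate dehydrogenase, the entry enzyme of the pentose phosphate pathway and a main source of NADPH. It had 90.28, 99.84 and 95.50 FPKM in the controls and 120.09, 89.15 and 99.70 in knockdown replicates 4, 5 and 6. The groups overlapped, with replicate 4 above and replicate 5 below all controls. The log2 difference was 0.10 with a 95% interval of -0.16 to 0.37 (limma adjusted p = 0.531). It was -0.013 without replicate 4 and 0.20 without replicate 5. Other genes of NADPH supply rose, 5 of 10 (12% of all tested genes), with 0 falling and a list median of 0.38. The counts were 5 and 0 after the GC correction (13.2% and 11.8% of all tested genes), with a median of 0.22. Idh1, the cytosolic isocitrate dehydrogenase, rose from 12.2 ± 0.350 to 25.5 ± 2.57 FPKM (SD, n = 3 each), and Me1, the malic enzyme, rose 1.35-fold; both were kept under all alternatives. Pgd and Taldo1, which encode other enzymes of the pentose phosphate pathway, rose 1.57-fold and 1.62-fold, and H6pd, its endoplasmic reticulum relative, 1.40-fold. Tkt (log2 difference 0.11, adjusted p = 0.499) and Idh2 (0.30, adjusted p = 0.0757) did not pass. Neither did the pathway genes Pgls (0.34, adjusted p = 0.129), Rpia (0.15, 0.145) and Rpe (-0.28, 0.263), which were outside the rule for naming and were added after their values were seen. Leaving out any 1 control left 2 risen genes in this list, and leaving out knockdown replicate 6 left 3. Of all tested genes 2.97% to 4.56% rose in those fits. Pgd lost its call without control replicate 1, 2 or 3 or knockdown replicate 6 (adjusted p = 0.0816, 0.0584, 0.0775 and 0.0530), and so did Taldo1 (0.0690, 0.0507, 0.0648 and 0.0536). H6pd lost it without control replicate 1, 2 or 3 (0.0537, 0.0520 and 0.0634).

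**Figure D3:**
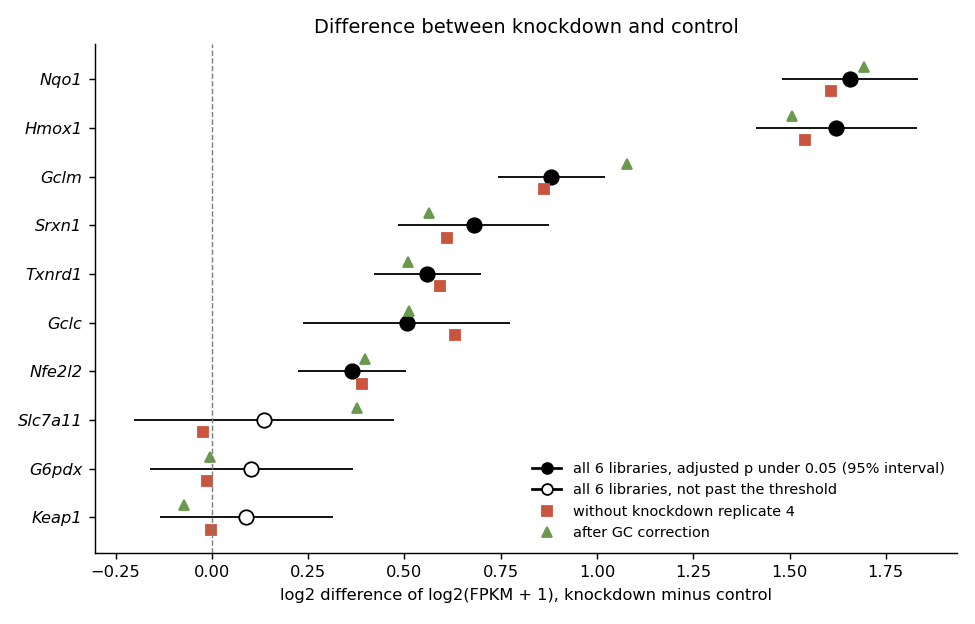
Log2 difference between knockdown and control in log2(FPKM + 1) (horizontal axis) for the 10 genes, with the 95% interval of the limma fit, and the value without knockdown replicate 4 or after the GC correction. Nqo1 (1.66) and Hmox1 (1.62) lie far to the right, and the intervals of Slc7a11, G6pdx and Keap1 include 0.

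The 10 genes differed in level as well as in response. In the controls their mean FPKM ran from Hmox1 (276.4) through Txnrd1 (143), G6pdx (95.2), Nfe2l2 (75.9), Gclm (69.9), Srxn1 (53.6), Keap1 (34.6), Gclc (25.4) and Nqo1 (23.2) to Slc7a11 (19.4). Only Gclc and Nqo1 overlapped among neighbours in that order. In the knockdown Gclm (129.6) stood above G6pdx (103) and Nfe2l2 (97.9), and Nqo1 (75.4) above Keap1 (37.0) and Gclc (36.7). Between neighbours in the knockdown order the values of G6pdx and Nfe2l2, Nfe2l2 and Srxn1, Srxn1 and Nqo1, and Keap1 and Gclc overlapped, and those of the other neighbours did not.

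Knockdown replicate 4 was the highest of the 3 knockdown libraries in 7 of the 10 genes and the lowest in 3, Nfe2l2, Gclc and Txnrd1. Over the 10247 tested genes with a known GC content, its log2 difference from the mean of replicates 5 and 6 correlated with GC content at Pearson r = 0.70, across genes, which share these libraries and are not independent replicates. The median difference was -0.43 for the 2525 genes under 45% GC and 0.21 for the 2411 genes at 55% or more. Keap1 (58.0% GC) lay at 0.27, on the side of other GC-rich genes. G6pdx (52.6%) lay at 0.35, against a median of 0.12 for the 2636 genes from 50% to 55% GC, few of which lay higher. Slc7a11, at 40.7% GC in a transcript of 9223 bases, lay at 0.47, against a median of -0.52 for the 597 genes within 1 percentage point of its GC content, of which 2 lay higher; this was looked at after its values were seen. Gclm (42.1%) lay at 0.056, above the 90th percentile of -0.049 for the genes under 45% GC. In both of these GC-poor genes the GC correction enlarged the log2 difference, from 0.14 to 0.38 in Slc7a11 and from 0.88 to 1.08 in Gclm. Over the 10 genes r was 0.12. The part of GC content in each gene's value was not tested beyond the correction, under which the same 7 genes rose.

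**Figure D4:**
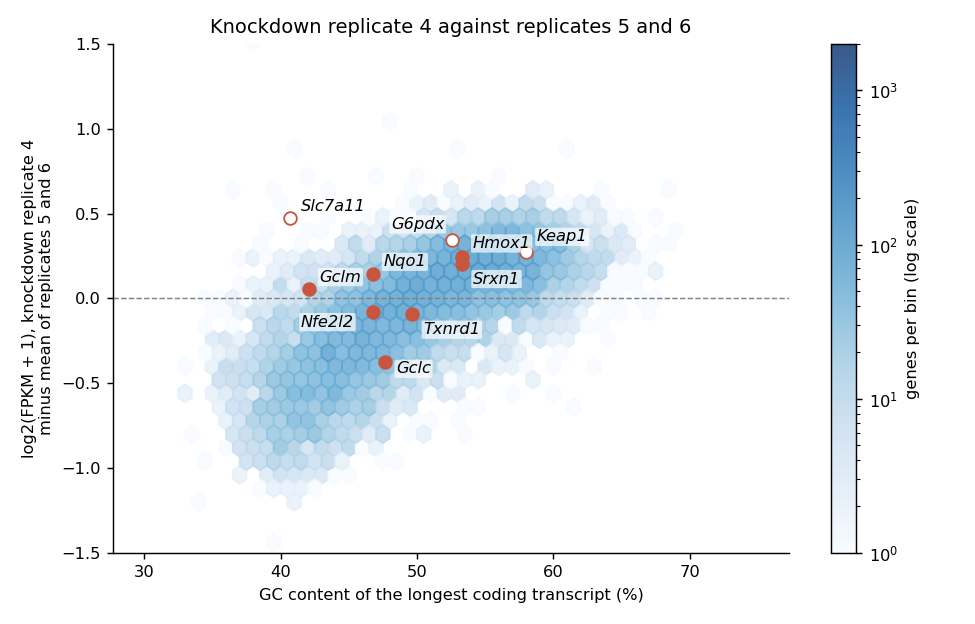
Log2(FPKM + 1) in knockdown replicate 4 minus the mean of replicates 5 and 6 (vertical axis) against GC content in percent (horizontal axis) for 10247 tested genes as shaded bins, with the 10 genes as circles, filled where they rose; the 4 genes beyond 1.5 lie off the scale. The cloud climbs with GC content, and Slc7a11 (0.47) lies above it.

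Of 17 listed regulators of NRF2 14 were tested, 3 rose, 2 fell and 9 did not pass, against 12% of all tested genes that rose and 5.89% that fell. The list median was 0.12, against 0.026 over all tested genes. It was 0.029 after the GC correction, against 0.00055. The counts were then 2 that rose and 2 that fell, against 13.2% and 11.8% of all tested genes. Among the small MAF partners, Mafk rose from 42.9 ± 1.09 to 56.9 ± 3.47 FPKM and Mafg from 13.6 ± 0.396 to 17.3 ± 0.924 (SD, n = 3 each), while Maff fell from 38.7 ± 2.87 to 26.4 ± 2.48. Sqstm1, whose product p62 draws KEAP1 into autophagy, rose 1.30-fold (limma adjusted p = 0.0459). Nfe2l1, a relative of NRF2, fell to a ratio of 0.849 (limma adjusted p = 0.0326). Bach1 and Cul3 were outside the rule for naming and were singled out after their values were seen. Bach1, the repressor, had 4.02, 2.95 and 3.62 FPKM in the controls and 2.99, 5.47 and 4.37 in the knockdown libraries, and did not pass (limma adjusted p = 0.467). Cul3, the ligase scaffold, was below the controls in all 3 knockdown libraries (22.01, 38.17 and 33.96 FPKM against 38.50 to 44.35) and did not pass (limma adjusted p = 0.157). Its log2 difference was -0.43, and -0.20 without knockdown replicate 4, the lowest library for this gene of 38.5% GC. Rbx1, the ring protein of that ligase, had 81.97 and 81.5 FPKM, and Dpp3, which binds KEAP1, a log2 difference of 0.19 (limma adjusted p = 0.228). Without control replicate 1, 2 or 3 or knockdown replicate 6, 0 regulators rose and those that fell were 1, 0, 0 and 0 (limma). Of all tested genes 2.97% to 4.56% rose in those fits and 1.54% to 2.38% fell. Mafk, Mafg and Sqstm1 thus lost their call each time, with adjusted p between 0.0505 and 0.172. Sqstm1 passed in only 9 of 18 alternatives, and its call was also lost with no filter (0.0724), median centring (0.0999), trimmed mean of M values (0.0756), no trend (0.0517) and a robust fit (0.0501). After the GC correction Mafg had a log2 difference of 0.19 against 0.32 (adjusted p = 0.0785). Nfe2l1 lost it without the same 4 libraries (0.156, 0.113, 0.118 and 0.109) and with scaling to TPM (0.0780), and Maff without control replicate 2 (0.0532) or 3 (0.0595) or knockdown replicate 6 (0.0507).

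Of 19 listed genes of the glutathione system 17 were in the table and 13 were tested. Of these 2 rose and 0 fell, near the share of all tested genes that rose (12%, while 5.89% fell). The list median was 0.084, and 0.062 after the GC correction. The 2 that rose were Slc3a2 and Chac1, which breaks glutathione down, from 9.80 ± 0.617 to 21.5 ± 3.76 FPKM (SD, n = 3 each). Both are also on the ATF4 list. The abundant peroxidase genes Gpx1 (log2 difference 0.11, adjusted p = 0.543), Gpx4 (0.21, adjusted p = 0.364) and Gpx8 (-0.056, adjusted p = 0.493) did not pass.

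In the list of thioredoxins, peroxiredoxins, superoxide dismutases and catalase, 4 of 19 tested genes rose and 1 fell (list median 0.11), against 12% of all tested genes that rose and 5.89% that fell. The counts were 3 and 2 after the GC correction (13.2% and 11.8% of all tested genes), with a median of 0.019. Cat, catalase, rose 1.36-fold and was kept under all alternatives. Prdx6 rose from 337 ± 9.33 to 480.7 ± 56.7 FPKM, Prdx4 rose 1.34-fold and Sesn2, a stress-induced sestrin, 1.51-fold. Txnip, the thioredoxin-binding inhibitor, fell to a ratio of 0.820. The most abundant genes of the list, Prdx1 (1133 ± 30.8 and 1173 ± 56.4 FPKM), Sod1 (log2 difference 0.30, adjusted p = 0.0905) and Txn1 (-0.22, adjusted p = 0.119), did not pass. Sod3, the secreted superoxide dismutase, was outside the rule for naming and was singled out after its values were seen. It missed the filter of the main fit, with 1.2, 1.6 and 1.67 FPKM in the controls and 0.24, 0.10 and 0.14 in the knockdown libraries. The authors' deposited table gives a log2 ratio of -3.25 and q = 9.95e-09. With no filter all 20 genes of the list were tested, Sod3 among them, and 2 fell. Without control replicate 1, 2 or 3, 2, 2 and 1 genes of the list rose and 0 fell, and leaving out knockdown replicate 6 gave 3 and 0. Of all tested genes 2.97% to 4.56% rose in those fits and 1.54% to 2.38% fell. Leaving out knockdown replicate 5 gave 4 and 2 (14.9% and 10.4% of all tested genes). The call of Prdx6 was lost without control replicate 1 (adjusted p = 0.0743), 2 (0.0572) or 3 (0.0703) or knockdown replicate 6 (0.0592), that of Txnip without the same 4 libraries (0.0719 to 0.0954), that of Prdx4 without control replicate 1 (0.0646) or 3 (0.0634), and that of Sesn2 without control replicate 2 (0.0510) or 3 (0.0634). After the GC correction Sesn2 had a log2 difference of 0.30 against 0.47 (adjusted p = 0.0503).

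Genes of heme breakdown and iron storage lie downstream of the Hmox1 reaction, except Hmox2, which encodes another heme oxygenase. Of 5 tested genes 2 rose and 0 fell (list median 0.28), against 12% of all tested genes that rose and 5.89% that fell. The counts were 2 and 0 after the GC correction (13.2% and 11.8% of all tested genes), with a median of 0.19. Blvrb, a biliverdin reductase, rose from 54.0 ± 3.75 to 101.2 ± 21.2 FPKM, and Ftl1, the ferritin light chain, from 2974 ± 190 to 4887 ± 824 (SD, n = 3 each). Fth1, the heavy chain, had 2751, 2956 and 2892 FPKM in the controls and 3858, 3275 and 3331 in knockdown replicates 4, 5 and 6. Its groups did not overlap, but it did not pass (limma adjusted p = 0.0815). Hmox2, the constitutive oxygenase, had a log2 difference of 0.24 (limma adjusted p = 0.0788). Without control replicate 1, 2 or 3 or knockdown replicate 6 the genes of the list that rose were 0, 1, 0 and 1. Of all tested genes 2.97% to 4.56% rose in those fits. Ftl1 lost its call in each of those fits (adjusted p = 0.0772, 0.0520, 0.0761 and 0.0551), and Blvrb in those without control replicate 1 (0.0517) or 3 (0.0537). Ferritin light chain has many processed copies in the mouse genome, and how the authors' counting shared reads among them is not given.

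Among other NRF2 targets of detoxification, 4 of 9 tested genes rose and 1 fell (list median 0.24), against 12% of all tested genes that rose and 5.89% that fell. The counts were 3 and 1 after the GC correction (13.2% and 11.8% of all tested genes), with a median of 0.13. Gstm1, a glutathione transferase, rose 1.57-fold, Osgin1 1.53-fold, Gstp1 1.42-fold and Abcc1, an exporter of glutathione conjugates, 1.21-fold. Nqo2, the relative of Nqo1, fell, with 5.50 ± 0.150 FPKM in the controls and 3.58 ± 0.318 in the knockdown (SD, n = 3 each). Ephx1 (log2 difference 0.24, adjusted p = 0.138), Akr1b8 (0.12, adjusted p = 0.342) and Ugdh (-0.088, adjusted p = 0.486) did not pass. Reads of Gstm1 and Gstp1 may be shared with near-identical family members. Without control replicate 1, 2 or 3 or knockdown replicate 6, 1 gene of the list rose, and those that fell were 0, 1, 0 and 1. Of all tested genes 2.97% to 4.56% rose in those fits and 1.54% to 2.38% fell. Abcc1 and Gstp1 lost their call without each of the 4 libraries (adjusted p 0.0878 to 0.147), Osgin1 without control replicate 1 (0.109) or 2 (0.10) or knockdown replicate 6 (0.0933), Nqo2 without control replicate 1 (0.0553) or 3 (0.0510), and Gstm1 without control replicate 3 (0.0521). Gstp1 also lost it with no filter (0.0748), median centring (0.0824) and trimmed mean of M values (0.0625), and Abcc1 with median centring (0.0587). After the GC correction Osgin1 had a log2 difference of 0.29 against 0.47 (adjusted p = 0.0841).

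The ATF4 list was read beside Slc7a11, which both factors are known to control. Of 14 tested genes 9 rose and 0 fell (list median 0.44), against 12% of all tested genes that rose and 5.89% that fell. The counts were 7 and 0 after the GC correction (13.2% and 11.8% of all tested genes), with a median of 0.35. Cebpb rose from 6.41 ± 0.900 to 13.2 ± 1.01 FPKM and Asns, asparagine synthetase, from 49.2 ± 3.08 to 96.1 ± 17.1 (SD, n = 3 each), Atf5 rose 1.94-fold, and Ddit3 1.63-fold. Each of these 4 was kept under all alternatives. Atf4 itself rose 1.30-fold and Psat1, of serine synthesis, 1.33-fold. Atf4 lost its call without control replicate 1 (adjusted p = 0.0534), 2 (0.0595) or 3 (0.0580) or knockdown replicate 6 (0.0540), and Psat1 without the same libraries (0.0709 to 0.113). Atf4 also lost it after the GC correction (log2 difference 0.25 against 0.38, adjusted p = 0.0621), and Psat1 with median centring (0.0621). Without control replicate 2 or 3, 6 genes of the list rose, against 4.12% and 2.97% of all tested genes. Phgdh, the first enzyme of serine synthesis, was higher in all 3 knockdown libraries than in any control and did not pass (limma adjusted p = 0.205). Neither did Trib3 (log2 difference 0.39, adjusted p = 0.0819), Nupr1 (-0.26, 0.155), Ddit4 (-0.080, 0.665) and Atf3 (-0.076, 0.488). They were outside the rule for naming and were added after their values were seen.

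**Figure D5:**
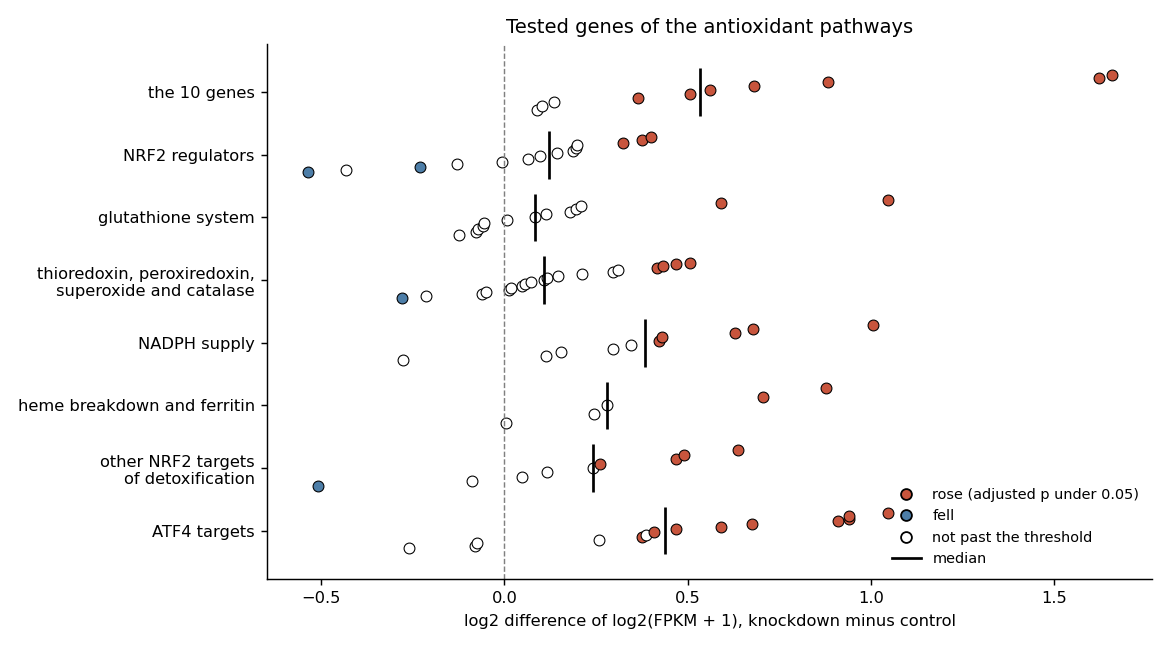
Log2 difference between knockdown and control in log2(FPKM + 1) (horizontal axis) for each tested gene of the 8 lists, as circles, red where it rose, blue where it fell and white otherwise, with the list median as a line. The median of the 10 genes is 0.53, that of NADPH supply 0.38 and that of the glutathione system 0.084.

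Genes whose pattern over the 6 libraries was most like that of Nqo1 were looked for among 8092 tested genes outside the 10, with a mean of at least 5 FPKM and without predicted, clone-named or pseudogene symbols. The 4 closest by Pearson correlation of log2(FPKM + 1) were Xdh, Slc44a2, Ski and Acat2, each with r of 0.999. Among the 10 genes Gclm (r = 0.9997) and Hmox1 (r = 0.998) were closest to Nqo1, and Slc7a11 (r = 0.44), G6pdx (r = 0.44) and Keap1 (r = 0.46) were farthest. With 2 groups of libraries such values mostly carry the difference between the groups and describe it only.

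Markers of other cell types were summed to see whether they moved with these genes; in bulk RNA, fewer cells of a type and less RNA per cell cannot be told apart. Endothelial markers (10 of 10 in the table) summed to between 1322.5 and 1373.4 FPKM in the controls and between 1318.8 and 1333.5 in the knockdown, though Vwf stayed under 1 FPKM. Of the 9 tested, Eng, a TGF-beta co-receptor gene, rose 1.26-fold (limma adjusted p = 0.0250), and its call was lost with median centring (0.0718) and when any 1 control or knockdown replicate 6 was left out (0.0791 to 0.108). Pecam1, Cdh5 and Tek were lower in all 3 knockdown libraries than in any control (log2 difference -0.140, -0.122 and -0.357). Kdr and Tie1 were higher in all 3 (0.197 and 0.233), and Flt1, Emcn and Erg overlapped. Apart from Eng, no tested gene of the list passed. After the GC correction 1 gene of the list rose and 3 fell (13.2% and 11.8% of all tested genes). Pericyte markers (4 of 7 in the table) summed to at most 0.93 and 1.01 FPKM, those of microglia and macrophages (3 of 7) to at most 0.23 and 0.24, and those of fibroblasts (4 of 5) to at most 1.13 and 0.80. Smooth muscle markers (6 of 6) went from between 44.19 and 46.23 to between 65.28 and 80.40, through Acta2 and Smtn, while Myh11, Tagln, Cnn1 and Des were under 1 FPKM in every library. Astrocyte markers (5 of 6) went from between 64.86 and 68.80 to between 30.34 and 35.78, and the 2 that were tested moved in opposite directions. Gja1, a gap junction gene, fell from 65.6 ± 1.97 to 27.9 ± 3.17 FPKM, and Aldh1l1 rose from 1.10 ± 0.040 to 5.29 ± 0.508 (SD, n = 3 each, limma adjusted p = 0.000623 and 0.000224). Gfap was at 0.02 FPKM or less in every library. The part of these shifts in the values of the 10 genes was not tested.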

How the data were processed

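Polyadenylated RNA of 3 control and 3 Npc1 knockdown samples was captured with oligo(dT), and its cDNA was sequenced from DNA nanoballs, per the labels' protocols. The authors deposited 1 table of FPKM values for 15917 genes, rounded to 2 decimals, with their own log2 ratio and its p-value and q-value. Not given in the sources used here are the aligner, counting program, genome build, strandedness and the authors' test, and without counts the depth is unknown. No FPKM column of another sample was present.

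Values were taken as log2(FPKM + 1), for genes averaging 1 FPKM or more, so that changes of low genes are understated. Knockdown and control were compared over the whole table with limma 3.58.1 in R 4.3.3 (intensity trend, two-sided, Benjamini-Hochberg over the 10400 genes tested, threshold 0.05). Ratios of FPKM within a library were compared with an exact permutation test. The fit was tested on simulated data. GC content was that of a gene's longest coding transcript in the GENCODE mouse set (the authors may have used others), and was known for 98.5% of tested genes. The GC correction subtracted from each library a spline (5 degrees of freedom) of its deviations on GC content. Promoter windows came from RefSeq. Alternatives were other pseudocounts, filters, scalings and variance models, the GC correction and leaving out each library.

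Named were the 10 genes, Npc1, and from each pathway list the genes past the threshold and up to 4 of the most abundant, and the 5 genes most like Nqo1, of which 1 is not reported here. The genes and lists were chosen with earlier results of these data known.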

Additional observations from a re-analysis of the deposited data

How the results depend on the processing

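Nqo1, Hmox1, Gclm, Txnrd1 and Srxn1 kept their direction and call under all 18 alternatives, Nfe2l2 kept its call under 15 and Gclc under 13, and Keap1, Slc7a11 and G6pdx passed under 0. The log2 difference of Keap1 was -0.073 after the GC correction and that of G6pdx -0.0049. With each library left out in turn the log2 difference ranged from -0.0012 to 0.17 for Keap1, from -0.023 to 0.24 for Slc7a11 and from -0.013 to 0.20 for G6pdx. The lowest came each time without knockdown replicate 4 and the highest without replicate 5. Over all tested genes, those that rose ranged from 309 to 1907 and those that fell from 160 to 1082 with 1 library left out. The fewest came without control replicate 3 (309 and 160), 1 (332 and 169) or 2 (428 and 222) or knockdown replicate 6 (474 and 248), where 5 or 6 of the 10 genes rose, and the most without knockdown replicate 4 (1907 and 1046) or, among those that fell, 5 (1082). With sample weights 4165 rose and 3186 fell, but the estimation of the weights stopped before it converged. After the GC correction 1231 fell. The cause of these changes was not tested. No paired analysis was possible because the groups share no replicate number. With 3 libraries a group and no counts, small differences such as those of Keap1, Slc7a11 and G6pdx were not detectable inside their intervals.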
